A study of Homo sapiens with 12 samples.

Results

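The response to Act D was compared between HCT 116p53-/- cells and uL3ΔHCT 116p53-/- cells by the interaction of treatment with line, which is the Act D effect in the uL3Δ line minus the Act D effect in the parental line. All 12 libraries of the series entered the comparison, in 4 groups of 3, and 15692 genes of the 33990 with any count were tested. HCT 116p53-/- is a human colon cancer line without the tumour suppressor p53, and the study describes uL3ΔHCT 116p53-/- as derived from it. The sample labels give the latter line as an RPL3 knockout and the study's methods as stable silencing of uL3, the ribosomal protein encoded by RPL3, and whether it is 1 clone is not given in the sources used here. All 4 groups share the loss of p53. In each line cells received 5 nM Act D for 24 h, or vehicle. The labels call the 3 libraries of a group biological replicates.

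Actinomycin D intercalates in GC-rich DNA. At low concentrations it blocks mainly RNA polymerase I on the rRNA genes, and free ribosomal proteins then bind MDM2, the ubiquitin ligase that degrades p53, so that p53 and its target genes are induced in cells that have p53. The study asked what uL3 contributes to the nucleolar stress response where p53 is absent, and the interaction addresses which transcripts responded differently in the line described as depleted of it.

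The labels were first compared with the RNA. RPL3 had 1110 to 1150 CPM (normalised counts scaled to a common library size) in the 6 parental libraries and 1130 to 1340 in the 6 labelled uL3Δ, and per library total, without TMM scaling, it had 1140 to 1320 and 958 to 1260. The ranges overlapped on both scales with opposite order of their highest values, so that RPL3 RNA was not clearly lower in the line labelled uL3Δ. Below, uL3Δ is only the label of this line. CDH1, the epithelial cadherin, had at most 0.662 CPM in the libraries labelled uL3Δ and at least 70.2 in the parental ones, and VIM, the mesenchymal intermediate filament, had at least 1850 and at most 46.3. Summed over 30 colon epithelial markers, the parental libraries had 3340 to 3660 CPM and those labelled uL3Δ 1530 to 1980, and over 30 mesenchymal markers 269 to 328 and 3620 to 4500. The lines thus differed in far more than the label before treatment, and the parts of uL3 and of the other differences in any result below cannot be told apart. Whether the line labelled uL3Δ descends from the parental one was not tested.

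More genes were called for Act D in the parental line than in the line labelled uL3Δ. In HCT 116p53-/- cells 2939 of the 15692 genes were called (18.7%), 1191 with a rise (7.59%) and 1748 with a fall (11.1%), and in cells labelled uL3ΔHCT 116p53-/- 1869 were called (11.9%), 551 with a rise (3.51%) and 1318 with a fall (8.4%). Calls are those of edgeR's quasi-likelihood test at an adjusted p of less than 0.05. The median size of the log2 fold change was 0.19 and 0.17 over the 9747 genes measured in both lines, as defined below. Libraries labelled uL3Δ spread more about their group means, with an SD of 0.12 to 0.173 on the log2 scale against 0.086 to 0.127. The fit used a shared estimate of the spread for each gene over all 4 groups, so the spread of each line did not enter its test separately. Counts of calls depend on the shared spread and do not give the extent of a response. Rises were 40.5% of calls in the parental line and 29.5% in the other, but 19.3% and 10.9% with scaling by library size alone and 49.3% and 48.3% with upper-quartile scaling. The difference between the responses was called for 1025 genes (6.53%), with a higher response in the line labelled uL3Δ for 518 (3.3%) and a lower one for 507 (3.23%). Without replicate 1 of the Act D libraries labelled uL3Δ the count was 614, and without replicate 1 or 2 of the parental Act D libraries it was 630 or 669.

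Most genes called in a single line did not have a called difference between the lines. Of 2171 genes called in the parental line and not in the other, the difference was called for 582 (26.8%), here termed parental only, and of 1101 called only in the line labelled uL3Δ it was called for 268 (24.3%), termed uL3Δ only. A further 62 genes were called in both lines in opposite directions, 56 in the same direction with different sizes, and 57 had a called difference without a call in either line. For 427 genes, termed alike, both lines were called in one direction and the 95% interval of the interaction lay within a 1.5-fold difference either way. Leaving out single libraries lowered each of these class counts by over 1.5 times, to 352 or 383 parental only genes without replicate 1 or 2 of the parental Act D libraries, and to 132, 167 and 169 uL3Δ only genes without replicate 1 of the Act D libraries labelled uL3Δ and replicates 1 and 2 of the parental ones. The opposite class had 35 to 39 genes without replicate 1 of the Act D libraries labelled uL3Δ, any 1 parental Act D library or replicate 2 of the parental vehicle, and the same-direction class 24 to 36 without any 1 parental library or replicate 1 or 3 of the Act D libraries labelled uL3Δ. The alike class had 245 to 271 without replicate 1 or 2 of the parental Act D libraries or replicate 3 of those labelled uL3Δ. Many genes had very different levels in the lines, so the examples of each class come from the 9747 genes measured in both, with at least 5 CPM in a group of each line and at least 10% of the other line's level. Of these 9747 genes 871 had a called interaction (8.94%), a larger share than that of all genes.

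**Figure D1:**
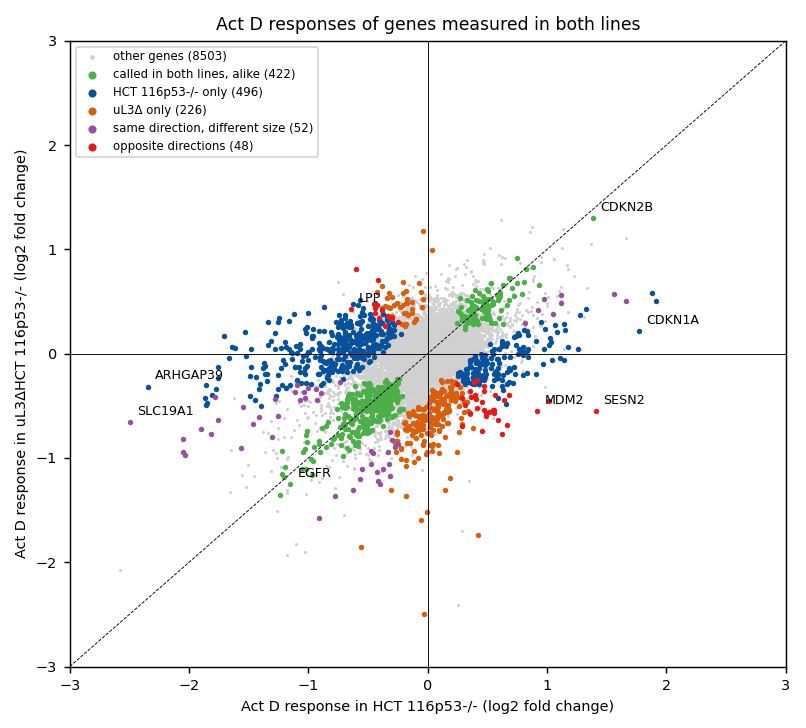
Act D response in HCT 116p53-/- cells (x axis, log2 fold change) against that in cells labelled uL3ΔHCT 116p53-/- (y axis, log2 fold change) for the 9747 genes measured in both lines, coloured by class with the number of genes in the key. The dashed line marks equal responses. MDM2 and SESN2 lie at the lower right among the 33 genes that rose in the parental line and fell in the other, and EGFR lies near the line of equal responses.

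Genes of the p53 pathway had the largest share of called differences among the lists, although both lines lack p53. Of 43 tested genes on a list of p53 targets, 23 had a called interaction (53.5%, beside 6.53% of all genes), 22 of them with the lower response in the line labelled uL3Δ. In the parental line 33 of the 43 rose and 1 fell, beside 7.59% and 11.1% of all genes. The median log2 fold change there was 0.91 beside 0.02 for all genes. In the line labelled uL3Δ 7 rose and 5 fell, beside 3.51% and 8.4% of all genes, with a median of 0.09 beside 0.03. The median interaction was -0.56, beside -0.01 for all genes. Scaling by library size alone left 18 lower calls and upper-quartile scaling 21.

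Several of these genes hold letters of the p53 response element near a start site, and 4 are shown, 2 of the opposite class, 1 parental only and 1 that rose in both lines with different sizes. The element was searched by name in windows from 250 bases before to 50 after each RefSeq start site (GRCh38.p14), as 2 half-sites of 10 letters side by side that read the same on both strands. A first search without mismatches, which let up to 13 letters lie between the half-sites, matched 1 of the 35 genes of the p53 list with a window (2.86%), 5 of 11325 tested genes (0.0442%) and 10 of all 35116 windows (0.0285%). After that count was seen the search was loosened to at most 3 mismatches, none at the core C and G of each half-site, with nothing between the half-sites. It then matched 9 of the 35 (25.7%), 176 of the 11325 (1.55%) and 392 of the 35116 (1.12%), and the sequences show these looser matches in capitals. MDM2, which rose in the parental line and fell in the other, is shown at a start site inside the gene (chr12:68808817-68809016, + strand). AEN, an apoptosis-linked exonuclease of the same class, is shown before its first exon (chr15:88621140-88621339, + strand). FAS, a death receptor of the parental only class, is shown before one of its RefSeq start sites (chr10:88991231-88991430, + strand). PMAIP1, which encodes the BH3-only protein NOXA and rose in both lines, is shown before its first exon (chr18:59899796-59899995, + strand). Each sequence is the 200 bases before a start site, 5′ to 3′.
MDM2: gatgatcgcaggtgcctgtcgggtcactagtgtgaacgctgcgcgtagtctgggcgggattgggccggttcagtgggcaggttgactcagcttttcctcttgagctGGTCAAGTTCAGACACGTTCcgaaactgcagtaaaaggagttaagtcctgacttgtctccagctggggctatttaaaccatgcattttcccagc
AEN: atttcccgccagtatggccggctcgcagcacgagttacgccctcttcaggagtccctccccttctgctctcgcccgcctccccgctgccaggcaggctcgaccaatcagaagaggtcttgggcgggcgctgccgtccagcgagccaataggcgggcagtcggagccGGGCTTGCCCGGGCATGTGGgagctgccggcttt
FAS: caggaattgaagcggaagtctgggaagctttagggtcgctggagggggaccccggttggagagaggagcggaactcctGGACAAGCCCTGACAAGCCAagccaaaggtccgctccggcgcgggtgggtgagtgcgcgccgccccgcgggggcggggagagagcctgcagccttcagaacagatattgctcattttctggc
PMAIP1: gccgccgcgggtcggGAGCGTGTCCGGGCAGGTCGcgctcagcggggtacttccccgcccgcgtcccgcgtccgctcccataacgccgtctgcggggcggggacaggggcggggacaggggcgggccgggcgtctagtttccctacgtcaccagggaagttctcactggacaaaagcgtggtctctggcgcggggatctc
The matches in MDM2, AEN and FAS had 2 mismatches and that in PMAIP1 had 3. Of the 5 matched genes not shown, DDB2, which had 1 mismatch, and RPS27L and FDXR, which had 3, had no called interaction, and SESN1 and GDF15, which had 3, were parental only. By class, the looser search matched 2 of 36 opposite genes that rose in the parental line (5.56%) and 0 of 16 that fell there. It matched 5 of 153 parental only rises (3.27%) and 6 of 306 parental only falls (1.96%). For uL3Δ only genes it matched 0 of 41 rises and 6 of 162 falls (3.7%), and for alike genes 0 of 90 and 2 of 262. The share of the list thus describes p53 targets and not a response class. A match describes the letters of a window and was not tested as a binding site.

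CDKN1A, which encodes the cyclin-dependent kinase inhibitor p21, had the smallest interaction p of the list. Its normalised level was 154, 174 and 159 CPM with vehicle and 577, 563 and 523 with Act D in the parental libraries, and 72.3, 76.6 and 73.9 with vehicle and 86.8, 82.2 and 90.2 with Act D in those labelled uL3Δ. The treatments did not overlap in either line, and the distance between them was far larger in the parental one. The log2 fold change was 1.77 ± 0.08 (SE, adjusted p = 4.02e-10) in HCT 116p53-/- cells and 0.22 ± 0.08 (adjusted p = 0.0881) in cells labelled uL3ΔHCT 116p53-/-, and the interaction was -1.56 ± 0.11 (adjusted p = 1.06e-06).

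MDM2 moved in opposite directions. It had 326, 294 and 310 CPM with vehicle and 578, 551 and 629 with Act D in the parental line, and 116, 99.3 and 106 with vehicle and 67.6, 83.2 and 68 with Act D in the line labelled uL3Δ. Every parental Act D library was above every parental vehicle library, and the reverse held in the other line. The log2 fold changes were 0.92 ± 0.09 and -0.55 ± 0.10 and the interaction -1.47 ± 0.13 (adjusted p = 1.48e-05). SESN2, which encodes the leucine sensor sestrin 2 that restrains mTORC1, went from 12.9, 15.8 and 17.3 CPM to 38.6, 40.8 and 42.5 in the parental line and from 39.9, 38.5 and 29.9 to 27.9, 24.4 and 21.3 in the line labelled uL3Δ. Its interaction of -1.95 ± 0.19 (adjusted p = 1.62e-05) was the largest of the opposite class among genes measured in both lines, and again no library of one treatment overlapped the other. AEN went from 128, 132 and 118 CPM to 186, 189 and 180 in the parental line and from 202, 191 and 156 to 111, 118 and 140 in the other, with an interaction of -1.13 ± 0.14 (adjusted p = 0.000221). TRIAP1, an inhibitor of apoptosis, was the fourth list member of this class, with an interaction of -0.93 ± 0.16.

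The death receptor gene TNFRSF10B and the decoy receptor gene TNFRSF10D, both receptors of the ligand TRAIL, were of the parental only class. TNFRSF10B had 121, 127 and 128 CPM with vehicle and 239, 236 and 229 with Act D in the parental libraries, and 190, 171 and 174 with vehicle and 153, 150 and 164 with Act D in those labelled uL3Δ. Its log2 fold changes were 0.91 ± 0.07 and -0.19 ± 0.07 (adjusted p = 0.106 for the latter), with an interaction of -1.10 ± 0.11 (adjusted p = 1.62e-05). TNFRSF10D rose by 1.26 ± 0.10 in the parental line, with 0.04 ± 0.10 in the other. BTG2, an antiproliferative gene, rose from 15.1, 17.1 and 13.7 CPM to 61.3, 56.3 and 55.4 in the parental line, and had 6.26, 10.1 and 8.1 with vehicle and 15.1, 11.5 and 7.77 with Act D in the line labelled uL3Δ, where the treatments overlapped (interaction -1.41 ± 0.26, adjusted p = 0.00334). GADD45A, a stress sensor that binds PCNA, rose from 17.9, 16.4 and 17.4 to 36.2, 40.2 and 37.7 CPM in the parental line, and the treatments of the other line overlapped at 49.9, 59.5 and 59.9 with vehicle and 61, 52.1 and 48.8 with Act D. GDF15, a secreted stress cytokine, and PPM1D, a phosphatase that counteracts p53 signalling, had interactions of -1.11 ± 0.23 and -0.93 ± 0.13. FAS had an interaction of -0.85 ± 0.20 (adjusted p = 0.0184), which missed the threshold without replicate 2 of the vehicle or replicate 1 of the Act D libraries labelled uL3Δ, at an adjusted p of up to 0.0671.

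Not every gene of the list was divided in this way. PMAIP1 rose in both lines, from 28.1, 22.3 and 22.2 to 53.7, 51.3 and 52.3 CPM in the parental line and from 97.1, 125 and 98.9 to 150, 175 and 150 in the other, and its interaction of -0.56 ± 0.16 (adjusted p = 0.0442) was lost under 11 alternatives, at an adjusted p of up to 0.111. RRM2B, a ribonucleotide reductase subunit, was alike, with 0.41 ± 0.08 in the parental line, 0.31 ± 0.09 in the other and a 95% interval of the interaction from -0.36 to 0.15. XPC, a sensor of DNA helix distortion, rose by 0.40 ± 0.09 and 0.71 ± 0.10, and its interaction of 0.31 ± 0.13 was not called (adjusted p = 0.184). KITLG, which encodes the ligand of the KIT receptor, was the 1 list member with a higher response in the line labelled uL3Δ. It fell in the parental line from 1410, 1190 and 1290 CPM to 519, 506 and 586, and in the other line, which hardly expressed it, the 6 libraries had 12.1 to 17.2 CPM.

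**Figure D2:**
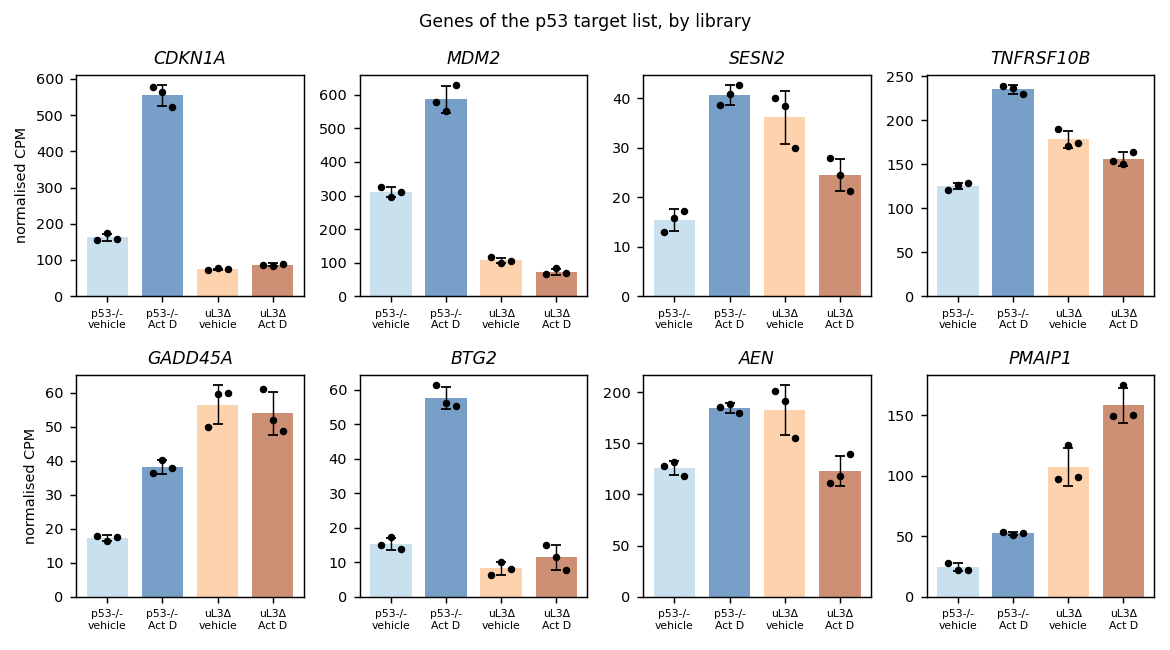
Normalised CPM (y axis, from 0) of 8 genes of the p53 list in each library (points), with group means (bars) and SD (error bars, n = 3) for HCT 116p53-/- cells (blue) and cells labelled uL3ΔHCT 116p53-/- (orange) with vehicle or Act D. CDKN1A reached 523 to 577 CPM with Act D in the parental libraries and 82.2 to 90.2 in those labelled uL3Δ, and MDM2, SESN2 and AEN moved in opposite directions.

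Immediate early genes, which encode short-lived regulators of the first response to signals, gave the second largest share of calls. Of 50 tested, 14 had a called interaction (28%, beside 6.53% of all genes), all with the lower response in the line labelled uL3Δ. In the parental line 25 rose and 2 fell, beside 7.59% and 11.1% of all genes. In the other 6 rose and 5 fell, beside 3.51% and 8.4%. The median interaction was -0.36. BTG2, PLK2 and PLK3 are on both this list and the p53 list. IER5, a regulator of heat shock factor 1, rose from 33.4, 37.1 and 35.1 to 75.1, 86.4 and 72.7 CPM in the parental line, and had 84.1, 79.6 and 80.1 with vehicle and 103, 94 and 86.8 with Act D in the line labelled uL3Δ (interaction -0.93 ± 0.13, adjusted p = 0.000478). FOSL1, which encodes an AP-1 subunit, was of the uL3Δ only class. It had 97.3, 100 and 96.7 CPM with vehicle and 108, 116 and 106 with Act D in the parental line, and fell from 217, 181 and 208 to 136, 147 and 139 in the other (interaction -0.69 ± 0.12). DUSP4, a phosphatase that inactivates MAP kinases, rose by 0.28 ± 0.09 in the parental line and fell by 0.42 on the log2 scale in the other. ATF3, a stress-induced transcription factor, had log2 fold changes of 1.33 ± 0.16 and 0.43 ± 0.14 (adjusted p = 0.0591 for the latter).

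Other stress and signalling lists had smaller shares of calls. All 7 called genes of 43 on the list of NF-kB regulators and targets (16.3%, beside 6.53% of all genes) had the lower response in the line labelled uL3Δ, among them LIF, a cytokine of the interleukin 6 family, and TNFAIP3, which encodes the feedback inhibitor A20. TNFAIP3 rose by 0.64 ± 0.15 in the parental line and fell by 0.45 on the log2 scale in the other (interaction -1.08 ± 0.20, adjusted p = 0.00314), and LIF rose by 0.40 ± 0.11 and fell by 0.43. The 7 NF-kB calls were 4 without replicate 1 of the parental Act D libraries. Of 59 genes of the ATF4 and unfolded protein response list 8 were called (13.6%, beside 6.53%), all lower, and SESN2 is one of them. PPP1R15B, a regulatory subunit of the phosphatase of the initiation factor eIF2α, fell from 186, 189 and 170 to 123, 135 and 116 CPM in the line labelled uL3Δ and was not called in the parental line (interaction -0.72 ± 0.12). VEGFA, the angiogenic growth factor, fell by 0.61 on the log2 scale in the line labelled uL3Δ, with 0.08 ± 0.09 in the other. The list of apoptosis regulators had 8 calls of 45 (17.8%, beside 6.53%), 4 of them genes of the p53 list (TNFRSF10A, TNFRSF10B, FAS and PMAIP1), and that of RAS-MAPK output had 7 of 43 (16.3%). The 8 apoptosis calls were 4 or 5 without any 1 of the 6 parental libraries, replicate 2 of the vehicle or replicate 1 of the Act D libraries labelled uL3Δ, and 4 with the replicate number as a block or by library size alone. The 7 RAS-MAPK calls were 3 or 4 without replicate 2 or 3 of the parental vehicle, any 1 parental Act D library, replicate 2 of the vehicle or replicate 1 or 2 of the Act D libraries labelled uL3Δ, and 4 with the block, by library size alone or with upper-quartile scaling.

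Genes of RNA polymerase I and ribosome assembly were called mainly in the line labelled uL3Δ. Of 75 tested, 23 fell and 3 rose there, beside 8.4% and 3.51% of all genes. In the parental line 7 fell and 4 rose, beside 11.1% and 7.59% of all genes. The interaction was called for 9 (12%), 8 of them lower, beside 6.53% of all genes and 8.94% of those measured in both lines. GRWD1, a histone chaperone that also takes part in ribosome assembly, had 125, 139 and 129 CPM with vehicle and 144, 137 and 137 with Act D in the parental line. In the line labelled uL3Δ it went from 112, 94.3 and 81 to 53, 47.7 and 55.7 without overlap, and the interaction was -0.96 ± 0.14 (adjusted p = 0.00088). POLR1B, which encodes the second largest subunit of RNA polymerase I, fell by 0.44 on the log2 scale, with 0.11 ± 0.07 in the parental line, and PPAN, a factor of 60S assembly, fell by 0.93. BYSL, a factor of 40S assembly, rose by 0.46 ± 0.13 in the parental line and fell by 0.47 in the other. DDX10, an RNA helicase of ribosome assembly with a span of 276 kb, was the exception with a higher interaction, and fell by 1.07 in the parental line and by 0.44 in the other. The 8 lower calls became 4 with the replicate number as a block and 4 to 10 when single libraries were left out. Of 79 genes of cytosolic ribosomal proteins, edgeR's quasi-likelihood test called 0 interactions, with 4 at an unadjusted p under 0.05, while DESeq2 called 1 and edgeR's likelihood-ratio test 0. Without replicate 3 of the vehicle libraries labelled uL3Δ the quasi-likelihood test called 2, both lower. Of the 79 interactions 66 were below 0, beside 7965 of all 15692 genes. The median was -0.13, beside -0.01 for all genes. RPL3 itself had an interaction of -0.01 with a 95% interval from -0.24 to 0.22.

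Of the transcripts of the mitochondrial genome, all 15 tested rose in the line labelled uL3Δ, where 3.51% of all genes rose (median 0.78, beside 0.03). In the parental line 4 of the 15 rose, where 7.59% of all genes rose (median 0.46, beside 0.02). EdgeR's quasi-likelihood test called 0 interactions, with 0 at an unadjusted p under 0.05 and 0 by DESeq2, but 4 higher ones without replicate 3 of the vehicle libraries labelled uL3Δ and 2 without a filter on low counts. The median interaction was 0.31, and 0.14 to 0.56 when single libraries were left out, the lowest without replicate 1 and the highest without replicate 3 of the same vehicle group. Scaling by library size alone left 13 of the 15 rises. MT-CO2, which encodes a subunit of cytochrome c oxidase, had 437, 443 and 446 CPM with vehicle and 622, 608 and 668 with Act D in the parental line, and 162, 276 and 347 with vehicle and 552, 479 and 553 with Act D in the other. Its interaction was 0.50, with a 95% interval from -0.01 to 1.00. The vehicle libraries labelled uL3Δ spread widely for these transcripts, with a summed level of 46400, 58000 and 67600 CPM, and those treated with Act D had 83900 to 103000.

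**Figure D3:**
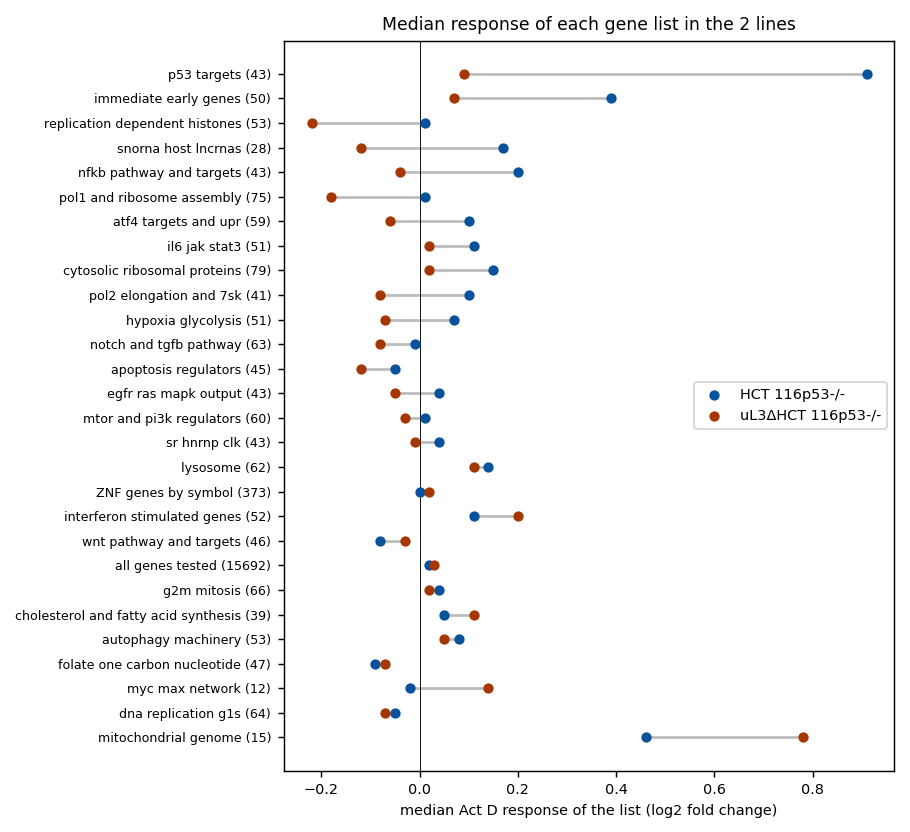
Median Act D response (x axis, log2 fold change) of each gene list in HCT 116p53-/- cells (blue) and cells labelled uL3ΔHCT 116p53-/- (brown), with the number of genes tested in parentheses and lists ordered by their median interaction. The p53 target list has medians of 0.91 and 0.09, and the mitochondrial genome has the highest median in the line labelled uL3Δ, 0.78.

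The autophagy list had 6 called interactions in 53 genes (11.3%), 5 of them lower. The share was 6.53% of all genes and 8.94% of those measured in both lines, as 47 of the 53 were. The count was 1 with the replicate block, 2 by library size alone, 4 with upper-quartile scaling and 1 to 4 without any 1 library other than replicate 3 of the vehicle libraries labelled uL3Δ, the lowest being without replicate 1 of either line's Act D libraries. ATG13 and TFEB were called in neither line and had interactions of -0.11 ± 0.16 and 0.28 ± 0.43 (adjusted p = 0.742 and 0.763). ULK1, the kinase that starts autophagosome formation, rose by 0.47 ± 0.14 in the parental line, with 0.05 ± 0.14 in the other, and its interaction was not called (95% interval -0.84 to 0.02). ATG101, a subunit of the ULK1 complex, rose in the parental line from 44.7, 46.6 and 33.6 to 63.2, 59.4 and 57.2 CPM and had 114, 118 and 93.8 with vehicle and 107, 97 and 114 with Act D in the other. Its interaction of -0.57 ± 0.16 (adjusted p = 0.0476) was lost under 11 alternatives, at an adjusted p of up to 0.122. The autophagy gene with the smallest interaction p was WDR45B, a phosphoinositide-binding protein of autophagosome formation, which fell in the line labelled uL3Δ from 90.1, 95.3 and 92.4 to 62.9, 61.1 and 65.2 CPM (interaction -0.72 ± 0.10, adjusted p = 0.000676). MYC, the growth-promoting transcription factor, fell by 0.27 in the parental line from 384, 395 and 376 CPM, had 14.1 to 17.1 CPM in all 6 libraries labelled uL3Δ, and its interaction was not called (adjusted p = 0.0839).

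Falls of the parental only class were the most frequent kind of called difference. Among genes measured in both lines, 341 of the 496 parental only genes fell. SYT1, a calcium sensor of vesicle exocytosis, fell from 41.9, 43.8 and 42 CPM to 13.2, 14.4 and 13.3 in the parental line, and had 7.39, 9.11 and 10.6 with vehicle and 10.1, 9.94 and 8.23 with Act D in the other, where the treatments overlapped (interaction 1.70 ± 0.18, adjusted p = 4.73e-05). ST6GAL1, a sialyltransferase, fell by 1.53 on the log2 scale in the parental line, with 0.21 ± 0.12 in the other, and ARHGAP39 fell by 2.34, with -0.32 ± 0.25 in the other. TCF7L2, the transcription factor that mediates Wnt signals in the intestine, fell from 49.3, 56.3 and 62.1 to 15.1, 15.9 and 22.2 CPM in the parental line, and had 15.1, 15.5 and 18.3 with vehicle and 17.8, 11.7 and 17.9 with Act D in the line labelled uL3Δ. Its level in the line labelled uL3Δ, with or without drug, was thus near that of Act D-treated parental cells, and the interaction was 1.62 ± 0.23 (adjusted p = 0.000608). MLLT1, a subunit of the super elongation complex, gave the same order, with 13.7 to 17.3 CPM in the parental Act D libraries and 13.7 to 19.6 in the 6 labelled uL3Δ.

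Genes that fell in both lines with different sizes included both orders. SLC19A1, the reduced folate carrier, fell from 51.5, 57.6 and 62.8 CPM to 9.1, 10.6 and 10.9 in the parental line and from 18.1, 15.6 and 14.8 to 10.9, 8.68 and 10.9 in the other. The Act D libraries of both lines overlapped in level although the vehicle libraries did not, and the log2 fold changes of -2.49 ± 0.12 and -0.66 ± 0.13 gave an interaction of 1.84 ± 0.18 (adjusted p = 2.26e-05). MAGI1, a scaffold of cell junctions, fell by 1.78 and 0.41, and RPTOR, the subunit of mTORC1 that recruits its substrates, by 2.05 and 0.95. The reverse order was given by IPPK, the kinase that makes inositol hexakisphosphate, which fell by 0.32 in the parental line and by 1.18 in the line labelled uL3Δ, and by ARHGEF18, which fell by 0.40 in the parental line with an interaction of -0.85 ± 0.15.

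Falls in the parental line against rises in the other formed the smaller side of the opposite class, 15 of 48 genes measured in both lines. LPP, a focal adhesion protein gene, fell from 85.2, 68.8 and 76.2 CPM to 46.4, 45.6 and 55.7 in the parental line and rose from 45.5, 49.7 and 59.6 to 72.1, 72.4 and 63.8 in the other (interaction 1.07 ± 0.16, adjusted p = 0.00088). FAM72A went from 11.7, 10.5 and 9.54 to 7.97, 8.66 and 7.0 CPM in the parental line and from 11.8, 12.9 and 10.9 to 20.1, 20.3 and 17.9 in the other, and its count is uncertain because the FAM72 genes are near-identical copies between which the counting divides reads. TGFBR3, a co-receptor for TGF-beta, fell by 0.45 in the parental line and rose by 0.47 ± 0.11 in the other. On the other side, beside SESN2 and MDM2, was CSRNP1, which encodes a nuclear protein. It rose from 10.8, 11.7 and 13 to 22.2, 26.8 and 23.1 CPM in the parental line. In the line labelled uL3Δ it fell from 106, 111 and 94.4 to 75.8, 72.9 and 78 (interaction -1.48 ± 0.14, adjusted p = 1.62e-05).

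Responses of the line labelled uL3Δ alone were mostly falls, 188 of 226 among genes measured in both lines. The fall with the largest interaction belonged to an unnamed transcript, ENSG00000270022, which went from 15.7, 12.3 and 12.1 CPM to 1.75, 2.51 and 3.02, with 7.3 to 12.6 CPM in all 6 parental libraries (interaction -2.47 ± 0.33). Among genes with a symbol, chosen after their values were seen, CLCF1, a cytokine of the interleukin 6 family, fell from 22, 23.1 and 19.8 to 9.24, 11.2 and 13.7 CPM and VPS37B, a subunit of the ESCRT-I sorting complex, from 84, 79.8 and 69.5 to 44.6, 36 and 39.3. In the parental line VPS37B overlapped between treatments, at 46 to 62.6 CPM with vehicle and 53 to 61 with Act D, and its interaction was -1.05 ± 0.16 (adjusted p = 0.00112). The histone genes H3C1, H4C2 and H4C8 were also of this class, with interactions of -1.10 ± 0.25, -0.83 ± 0.22 and -0.89 ± 0.16, and they were the 3 calls among 53 replication-dependent histone genes (5.66%, near the share of all genes). H4C2 lost its call under 10 alternatives and H3C1 without replicate 1 of the Act D libraries labelled uL3Δ, at adjusted p of up to 0.0708 and 0.0566. Rises were fewer, and FES, a tyrosine kinase, went from 2.33, 2.6 and 1.89 to 4.8, 4.68 and 6.14 CPM with an interaction of 1.21 ± 0.25 (adjusted p = 0.00781).

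**Figure D4:**
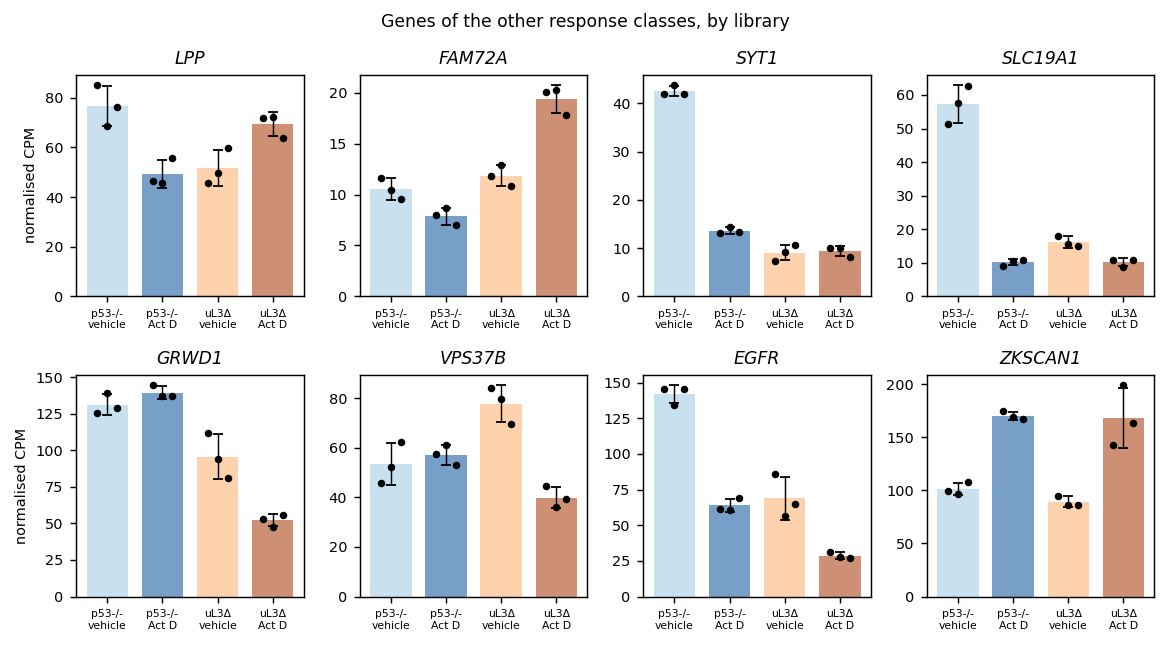
Normalised CPM (y axis, from 0) of 8 genes of the other response classes in each library (points), with group means (bars) and SD (error bars, n = 3) for both lines with vehicle or Act D. LPP and FAM72A moved in opposite directions, SYT1 fell in the parental line only, SLC19A1 fell in both to overlapping levels, GRWD1 and VPS37B fell in the line labelled uL3Δ only, and EGFR and ZKSCAN1 changed alike.

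The alike class held 427 genes, 112 that rose and 315 that fell. EGFR, the epidermal growth factor receptor, fell from 145, 135 and 146 CPM to 61.7, 60.8 and 69.1 in the parental line and from 85.7, 56.3 and 64.5 to 31.4, 27.9 and 27 in the other. The log2 fold changes were -1.15 ± 0.12 and -1.25 ± 0.13, and the 95% interval of their difference ran from -0.46 to 0.27. ASAP2, a GTPase-activating protein for Arf, fell by 1.24 in the parental line and by 1.35 in the other, and ANKRD11, a chromatin regulator, by 1.22 and 1.15. ZKSCAN1, a zinc finger gene, rose from 99.2, 97 and 108 to 175, 170 and 167 CPM and from 95, 86.3 and 86.2 to 143, 199 and 164. CDKN2B, which encodes p15, a CDK inhibitor like p21, rose by 1.38 ± 0.17 and 1.30 ± 0.16, and SESN3, a sestrin gene like SESN2, rose by 0.88 ± 0.18 and 0.83 ± 0.13. Their intervals of the difference ran from -0.57 to 0.40 and from -0.51 to 0.40, so that alike means within 1.5-fold and not equal. With a narrower limit of 0.32 on the log2 scale, 66 genes were alike.

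Responses also differed by gene span, the distance from a gene's start to its end. In the 13239 protein-coding genes tested, the median parental response was between 0.08 and 0.13 in bins of up to 40 kb and was -0.30 in 962 genes of 160 to 320 kb and -0.41 in 427 genes of over 320 kb. In the line labelled uL3Δ the medians of all bins lay between -0.06 and 0.05. Of the genes over 320 kb, 167 (39.1%) fell in the parental line and 38 (8.9%) in the other. Falls were also more frequent among longer genes in the line labelled uL3Δ, at 18.3% of genes of 80 to 160 kb and 15.8% of those of 160 to 320 kb against 4.25% to 5.74% in the bins of up to 20 kb. In the genes over 320 kb the interaction was called higher for 90 (21.1%, beside 3.3% of all genes) and lower for 4. Of 367 protein-coding genes that fell in the parental only class, 172 (46.9%) were over 160 kb, against 10.5% of all those tested and 4.69% of the 192 that fell in the uL3Δ only class. Alike falls had 25.7%.

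The span pattern was present in each parental Act D library. Over genes measured in both lines, the median log2 ratio to the line's vehicle mean in 845 genes over 160 kb minus that in 3141 genes of up to 20 kb was -0.53, -0.53 and -0.38 in these 3 libraries. In the Act D libraries labelled uL3Δ it was -0.07, 0.04 and -0.16, and in the 6 vehicle libraries it was between -0.09 and 0.09. Long genes had transcripts of lower GC content, with a median of 44.1% over 320 kb and 57.2% in genes of up to 5 kb. Within each of 4 equal groups of genes by transcript GC content, genes over 160 kb had median parental responses between -0.57 and -0.25 and median interactions between 0.27 and 0.41, and genes of up to 20 kb had median interactions between -0.09 and -0.03. The part of span or of another property of these genes in the response was not tested.

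**Figure D5:**
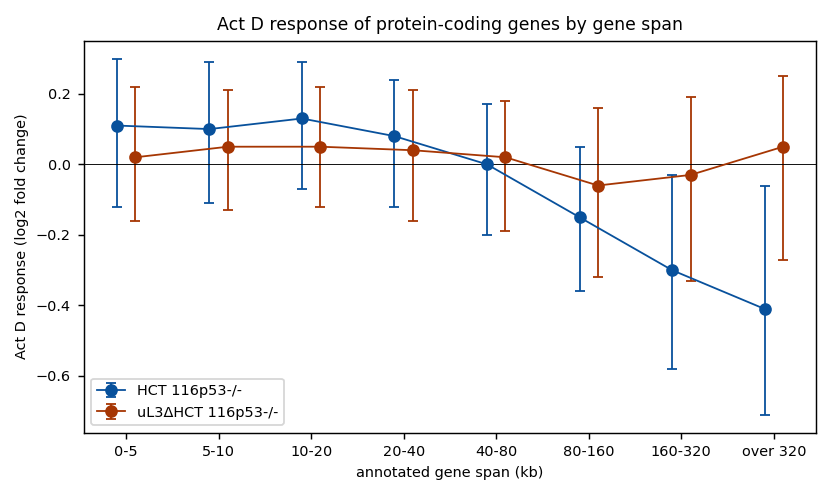
Median Act D response (y axis, log2 fold change, points) of protein-coding genes in bins of annotated gene span (x axis, kb), with the 25th and 75th percentiles over genes (bars), for HCT 116p53-/- cells (blue) and cells labelled uL3ΔHCT 116p53-/- (brown). The parental median goes from 0.08 in the bin of 20 to 40 kb to -0.41 over 320 kb, and the other stays between -0.06 and 0.05.

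Genes that one line hardly expressed need separate reading. Of 1005 genes with less than 5% of one line's level in the other, 39 had a called interaction, a smaller share than the 6.53% of all genes. Of the 39, 29 were high in the libraries labelled uL3Δ and 10 in the parental ones, and how the 1005 divide between the lines is not given here. The leading one was FABP4, a fatty acid-binding protein of adipocytes and endothelium, with 0.518, 0.826 and 0.181 CPM with vehicle and 7.1, 6.15 and 5.15 with Act D in the parental libraries, against 863 to 1090 in the 6 libraries labelled uL3Δ (interaction -3.44 ± 0.29). TGFBI, a matrix protein induced by TGF-beta, likewise rose in the parental libraries from 3.44, 2.13 and 2.78 to 10, 9.54 and 11.3 CPM, against 965 to 1070 in the others (interaction -1.79 ± 0.17). Over 32 genes nearly exclusive to the line labelled uL3Δ, the median level in parental libraries was 0.337% to 0.535% of that line's level with vehicle and 0.874% to 1.01% with Act D. Over 27 genes nearly exclusive to the parental line it was 0.509% to 0.681% in the vehicle and 0.172% to 1.06% in the Act D libraries labelled uL3Δ. FABP4 and TGFBI are themselves among the 32 genes, so that this median is not independent of their rises. The part of these levels in the 2 rises was not tested. When the 1005 genes were left out, 999 genes had a called interaction, of which 986 were among the 1025.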

How the data were processed

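Paired-end TruSeq RNA libraries of 2 human colon cancer lines, with 3 per line and treatment, gave 10087925 to 21138886 counts each. According to the study's methods and the labels, reads were trimmed, cleared of contaminants and assigned to hg38 transcripts with RSEM 1.2.25, and the authors deposited RSEM expected counts per gene without normalization. RSEM divides reads that fit several genes, so that counts of near-identical genes are uncertain. One library, the second replicate of the parental line with vehicle, was deposited per transcript, and its values were summed per gene. TPM and FPKM columns were not used. Counts were rounded to whole numbers.

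Genes were kept by edgeR's filterByExpr (edgeR 4.0.16, R 4.3.3), scaled by TMM (factors 0.847 to 1.148) and fitted with 1 term per group over all 12 libraries. The Act D effect in each line and their difference, the interaction, were tested by the quasi-likelihood test with Benjamini-Hochberg adjustment over all genes tested, at an adjusted p under 0.05. Values given as normalised CPM use the TMM-scaled library sizes, and levels of the label checks other than RPL3 use unscaled totals. Errors of log2 fold changes are SE and n is 3 per group. The p-values rest on replicates that the labels call biological, with no word on separate cultures. DESeq2 1.42.0, other scalings and filters, a replicate block and leaving out each library were tried as alternatives. A threshold of 1 on the size of the log2 fold change was a further one. It is left out where the text counts alternatives under which a gene lost its call. The fit was tested on simulated data. It left a part of the simulated 2-fold differences between lines uncalled, fewer being recovered than the mark first set, and was then judged by bias and false calls, so that a missing call or a class of one line does not show that the other line did not respond.

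Of 60617 identifiers 60261 matched GENCODE release 44, which gave symbols and spans, and 11325 of the tested genes matched a RefSeq promoter window by symbol. Groups came from the sample labels. Named genes were those the study measured, the leading genes of each class by size among genes measured in both lines, up to 3 per list by interaction p, and the leading genes of one line. GADD45A, AEN, PMAIP1, FAS, GDF15, TRIAP1, PPM1D, ATF3, RRM2B, XPC, PPAN, DDX10, CLCF1 and VPS37B were added after their values were seen. The comparison, the lists and the rules were chosen with earlier results of these data known, so that list counts are descriptions and not independent evidence.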

Additional observations from a re-analysis of the deposited data

Results flagged for a closer look

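The test of the difference between the 2 lines was itself the comparison, and it called 1025 genes. Groups held 3 libraries, too few to test single libraries as outliers. Of the 66 genes named with values, 52 had a called difference, and they are given here by their interaction log2 fold change, the response in the line labelled uL3Δ minus that in the parental line, with no explanation weighed.

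The response was higher in the line labelled uL3Δ for ARHGAP39 (2.03), SLC19A1 (1.84), ST6GAL1 (1.74), SYT1 (1.70), TCF7L2 (1.62), MLLT1 (1.56), MAGI1 (1.37), KITLG (1.22), FES (1.21), FAM72A (1.13), RPTOR (1.10), LPP (1.07), TGFBR3 (0.93) and DDX10 (0.63). It was lower for FABP4 (-3.44), ENSG00000270022 (-2.47), SESN2 (-1.95), TGFBI (-1.79), CDKN1A (-1.56), CSRNP1 (-1.48), MDM2 (-1.47), BTG2 (-1.41), TNFRSF10D (-1.22), GADD45A (-1.20), CLCF1 (-1.19), AEN (-1.13), GDF15 (-1.11), TNFRSF10B (-1.10), H3C1 (-1.10), TNFAIP3 (-1.08), VPS37B (-1.05), GRWD1 (-0.96) and TRIAP1 (-0.93). It was also lower for PPM1D (-0.93), IER5 (-0.93), BYSL (-0.92), ATF3 (-0.90), H4C8 (-0.89), IPPK (-0.86), FAS (-0.85), ARHGEF18 (-0.85), LIF (-0.83), H4C2 (-0.83), PPAN (-0.82), PPP1R15B (-0.72), WDR45B (-0.72), DUSP4 (-0.71), FOSL1 (-0.69), VEGFA (-0.69), ATG101 (-0.57), PMAIP1 (-0.56) and POLR1B (-0.55). FABP4, TGFBI and KITLG were hardly expressed in one of the lines. FAS, PMAIP1, ATG101, H3C1 and H4C2 lost their call under some alternatives other than the threshold of 1 on the log2 fold change. Under that threshold every gene with an interaction smaller than 1 in size also lost its call, which follows from the threshold itself.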

How the results depend on the processing

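Of the 1025 called differences, DESeq2 (1289 calls) shared 980, scaling by library size alone (757) 756, upper-quartile scaling (1042) 965, and 0 shared calls changed sign under any alternative. Deviations of same-numbered libraries correlated at 0.11, 0.21 and 0.22 in the parental line, all over 0.1, but at 0.01, -0.06 and -0.28 in the other. A replicate block within each line gave 886 calls, 826 of them shared, and 2742 parental calls. These numbers are those of the titles, and descriptions of the Act D libraries labelled uL3Δ give different ones, so the pairing is in doubt there. A replicate block over both lines gave 722 calls, 718 of them shared, with 41 opposite, 170 uL3Δ only, 26 same-direction and 4 lower ribosome assembly genes. The naming rule and later additions took 136 genes, more than the 66 named with values, and 103 of the 136 had a called difference. Of these 103, 78 kept it under all alternatives but the fold threshold, and 0 called values reversed. The same-direction class held 86 genes by DESeq2 and also 86 without a filter, which gave 826 lower differences and 428 uL3Δ only genes. Rises numbered 551 in the parental line and 227 in the line labelled uL3Δ by library size alone, and in the latter 944 by upper-quartile scaling and 242 in a fit of its 6 libraries. A narrower interval limit, 0.32 on the log2 scale, left 66 alike genes.

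A further threshold of 1 on the size of the log2 fold change left 284 differences, 168 higher and 116 lower. It left 454 parental calls (193 up, 261 down) and 202 in the line labelled uL3Δ (87 up, 115 down). By class it left 4 opposite, 141 parental only, 44 uL3Δ only, 0 same-direction and 8 alike genes. Of the list members it left 26, with lower calls for 11 p53 targets, 2 immediate early, 0 ribosome assembly, 1 NF-kB and 2 ATF4 genes. These fewer calls follow from the threshold itself, and the cause of the other shifts was not tested.

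Leaving out single libraries gave 614 to 979 differences (300 to 481 higher, 314 to 538 lower), the lowest counts being without replicate 1 of the Act D libraries labelled uL3Δ and without replicates 1 and 2 of the parental ones. It gave 1833 to 3389 parental calls (664 to 1413 up, 1169 to 1976 down) and 1272 to 1869 in the line labelled uL3Δ (295 to 533 up, 923 to 1337 down). The classes ranged from 35 to 60 opposite, 352 to 623 parental only, 132 to 283 uL3Δ only, 24 to 50 same-direction and 245 to 388 alike. List members called ranged from 79 to 129, with 17 to 22 lower p53 targets, 11 to 14 immediate early, 4 to 10 ribosome assembly, 4 to 8 NF-kB and 7 to 10 ATF4 genes.

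With 3 libraries per group and 10087925 counts in the shallowest, a missing call does not show equal responses.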
